A study of Caenorhabditis elegans with 2 samples.

Results

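The regions described here are SPTF-1 binding summits that lay upstream of a gene in a promoter used in 1 direction only. A summit is the position of strongest signal inside a peak. Each summit was placed against the 5′ ends of annotated protein-coding transcripts, taking as its promoter the stretch reaching 1000 bp upstream and 500 bp downstream. A summit was a member if it fell in windows of genes on 1 strand only, lay upstream of the nearest such 5′ end, and was more than 200 bp from any tRNA, snoRNA, snRNA or miRNA gene. There were 760 members, 31.4% of the 2419 nuclear peaks among the 2430 peaks of the authors' thresholded list. The rule used position alone and no measured value. The other nuclear summits were 344 in divergent promoters, which serve genes on both strands, 116 just downstream of a gene start, 341 close to a small RNA gene and 858 outside every promoter window.

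The study carried out chromatin immunoprecipitation followed by sequencing (ChIP-seq) in 2 biological replicates of Caenorhabditis elegans embryos. The worms were strain OP707, of genotype unc-119(tm4063) III; wgIs707, whose transgene wgIs707 supplies SPTF-1 with GFP and FLAG at its C terminus. Embryos of mixed stages and sexes were taken 2.5 hours after egg bleaching and sonicated as whole organisms, so all embryonic cell types were mixed and the tagged protein came from 1 transgenic line. An anti-GFP antibody is given in the description of each sample but sptf-1 in the antibody field, and all samples formed 1 group, so no conditions were compared.

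SPTF-1 belongs to the Sp family of transcription factors, which bind DNA through C2H2 zinc fingers. In mammals the family is known for binding GC boxes and the related CACCC boxes in promoters of widely expressed genes. In C. elegans many messenger RNAs are trans-spliced: the first bases of the transcript are cut off and replaced by a spliced leader at an acceptor site. The annotated 5′ end of such a gene is then often the acceptor site, and the position where RNA polymerase starts lies further upstream. Some worm promoters serve a single gene and others lie between genes that point away from each other.

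The 5 windows below are taken from the 10 strongest member summits found in both replicates on chromosomes II, III, IV, V and X, and are shown because they carry high signal without a GC box or CACCC box. Each holds the summit with 50 bp on either side, from the ce11 (WBcel235) genome, and is printed 5′ to 3′ on the strand of the nearest gene. Capitals mark any match, on either strand, to 1 of 6 words. These are the GC box with the letters GGGCGG, the KLF factor box with CCACCC, the word CTGCGTC, the repeat GAGAGAG, the internal promoter word GGTTCGA of tRNA genes, known as the B box, and CTTGCGCA. The K12H4.5 window is chrIII:8043908-8044008 on the plus strand, and the rpl-3 window is chrIII:3867536-3867636 on the plus strand. The ftt-2 window is chrX:11605871-11605971, the tos-1 window is chrV:9344222-9344322 and the cdc-48.1 window is chrII:10563537-10563637, all on the minus strand. The K12H4.5 window alone among these 5 has capitals, for a GA repeat in the opposite orientation and for CTTGCGCA.
K12H4.5: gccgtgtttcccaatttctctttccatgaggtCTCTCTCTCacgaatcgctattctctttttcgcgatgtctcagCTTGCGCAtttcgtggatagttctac
ftt-2: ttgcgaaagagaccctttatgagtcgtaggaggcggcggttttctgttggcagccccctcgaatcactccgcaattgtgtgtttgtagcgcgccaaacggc
rpl-3: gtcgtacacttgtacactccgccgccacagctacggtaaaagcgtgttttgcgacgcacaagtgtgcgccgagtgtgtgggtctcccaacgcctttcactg
tos-1: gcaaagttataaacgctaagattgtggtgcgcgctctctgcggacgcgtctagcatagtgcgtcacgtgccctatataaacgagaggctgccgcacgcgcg
cdc-48.1: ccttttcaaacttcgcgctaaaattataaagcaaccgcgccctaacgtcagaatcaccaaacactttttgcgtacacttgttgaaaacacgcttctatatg

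The next 3 windows are the strongest on the same chromosomes that hold a GC box within 50 bp of the summit, and are shown because this is the word known for the family. They are chrIV:1659216-1659316 on the plus strand for rps-28, chrIV:1595937-1596037 on the minus strand for npp-8 and chrIII:3916764-3916864 on the plus strand for ccdc-47. Capitals mark the GC box, which reads in the opposite orientation at rps-28 and npp-8.
rps-28: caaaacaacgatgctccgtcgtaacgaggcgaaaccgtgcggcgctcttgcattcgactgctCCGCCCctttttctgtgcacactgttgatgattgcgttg
npp-8: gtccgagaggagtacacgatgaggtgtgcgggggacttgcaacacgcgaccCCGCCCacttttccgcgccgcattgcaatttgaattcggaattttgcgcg
ccdc-47: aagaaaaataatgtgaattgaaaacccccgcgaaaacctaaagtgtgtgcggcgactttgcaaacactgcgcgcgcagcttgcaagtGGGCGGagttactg

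The word CTGCGTC had the highest ratio of its share in member windows to its share in promoters among the 13 words searched, and 2 strong examples are printed. They are chrV:10897329-10897429 for sec-61.G and chrX:6092137-6092237 for hsp-3, both on the minus strand, with the word in capitals.
sec-61.G: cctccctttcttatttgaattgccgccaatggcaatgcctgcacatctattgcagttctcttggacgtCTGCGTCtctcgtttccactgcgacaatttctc
hsp-3: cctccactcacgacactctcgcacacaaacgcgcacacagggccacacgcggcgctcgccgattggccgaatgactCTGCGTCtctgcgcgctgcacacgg

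The last 3 windows hold CTTGCGCA, a word picked after its values were seen because 12 of its 22 member windows are among the 100 strongest. They are chrIII:1859695-1859795 on the plus strand for ddp-1, chrV:6267593-6267693 on the minus strand for mrck-1 and chrX:5165193-5165293 on the plus strand for mans-3. The ddp-1 window holds the word in both orientations.
ddp-1: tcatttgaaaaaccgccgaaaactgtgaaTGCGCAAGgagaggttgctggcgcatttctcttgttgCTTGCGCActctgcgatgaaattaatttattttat
mrck-1: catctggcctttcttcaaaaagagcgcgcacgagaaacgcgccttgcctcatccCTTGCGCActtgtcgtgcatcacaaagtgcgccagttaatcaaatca
mans-3: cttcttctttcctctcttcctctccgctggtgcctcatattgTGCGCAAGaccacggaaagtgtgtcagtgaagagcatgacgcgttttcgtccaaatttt

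The strongest member summit lay 529 bp upstream of K12H4.5 and had a signal value of 3328 in the list made from both replicates. The signal value is the strength the authors' peak caller gave each region, and its scale differs between lists, so replicates are compared by rank. At K12H4.5 the overlapping region had a signal value of 1671 in replicate 1 (rank 9 of that list) and 1650.0 in replicate 2 (rank 5). It was therefore close to the top of both replicates.

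The gene ftt-2, which codes for a 14-3-3 adaptor protein, had 2 member summits in 1 peak interval, 502 and 707 bp upstream of its 5′ end. Their pooled signal values were 2389 and 1323. Each replicate had 1 region over both, with a signal value of 1309 in replicate 1 (rank 16) and 1084 in replicate 2 (rank 17). The replicates thus placed the peak at almost the same rank and did not separate the 2 summits. The summit upstream of rpl-3, which codes for a protein of the large ribosomal subunit, had a pooled signal value of 2269, with 1191 in replicate 1 (rank 21) and 1072 in replicate 2 (rank 18). It lay 268 bp upstream, at an annotated 5′ end that directly follows a splice acceptor word.

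Below these 3 genes the signal value fell off quickly. The summit at T13C5.6 had a pooled value of 1494 and ranks 42 and 34 in replicates 1 and 2. The summit at tos-1, a gene studied for its alternative splicing, had a pooled value of 1295 with ranks 58 and 67, and lay 69 bp upstream. The other 14 of the 20 strongest summits found in both replicates ranged from 1292 to 990.2. They belonged to M01F1.9, rpl-35, K05C4.2, Y39E4B.6, cdc-48.1, eif-3.C, sto-4, W01D2.3, rps-28, npp-8, cbp-1, F26F2.7, F39G3.3 and ddp-1.

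Several of these genes have well known general roles. The gene cdc-48.1 codes for the AAA ATPase that extracts ubiquitylated proteins, and its summit had a pooled signal value of 1167, with 593 in replicate 1 (rank 103) and 561 in replicate 2 (rank 61). The gene eif-3.C codes for a subunit of translation initiation factor 3, and its summit had a pooled value of 1151, with 642 in replicate 1 (rank 86) and 495 in replicate 2 (rank 85). The gene npp-8 codes for a nucleoporin, and its summit had a pooled value of 1040.4, with ranks 106 and 102 in the 2 replicates. The gene cbp-1 codes for the worm CBP/p300 histone acetyltransferase. Its summit lay 919 bp upstream, near the far edge of the window, with a pooled value of 1040.1 and ranks 92 and 121. All of the 20 strongest summits ranked within the first 124 regions of each replicate list. They were picked for a high pooled value and a top region in both replicates, so high ranks in each list followed largely from that choice.

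Across the 760 members the signal value had a lowest value of 219, a median of 301 and a highest value of 3328, with quartiles at 249 and 411. The median was 344 at the 344 summits in divergent promoters, 271 at the 116 summits just downstream of a gene start and 299 over all nuclear peaks. Of the members 174 (22.9%, exact 95% interval 19.95 to 26.05%) lay among the top 25% of all nuclear peaks by signal value, against 123 of the divergent summits (35.8%, interval 30.7 to 41.1%). The odds ratio was 0.534, with an adjusted p of 0.000152 (two-sided Fisher's exact test, Benjamini-Hochberg adjustment over 32 tests). Only 9 of the downstream summits (7.76%, interval 3.61 to 14.2%) were in the top 25%, and the odds ratio of members against these was 3.53 with an adjusted p of 0.000462 by the same exact test. The members were thus less often among the strongest peaks than divergent summits and more often than downstream ones. Both differences lost significance when only the stronger 50% of the thresholded list was kept (adjusted p of 0.0849 and 0.170, the same exact test). There the top 25% was taken anew among the kept peaks, which is a stricter cut. Fisher's test counts each summit as independent, which neighbouring summits are not.

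A region was called a top region if it was among the 2430 strongest of a replicate's list, as many as the thresholded list holds. Both replicates had such a region over 529 of the members (69.6%, interval 66.2 to 72.9%), replicate 1 alone over 103, replicate 2 alone over 109 and no replicate over 19. Over all nuclear peaks the share was 69.8%, so the members' share was near the background. The divergent summits reached 79.1% (interval 74.4 to 83.2%), which was higher than the members (odds ratio 0.606, adjusted p = 0.00476, the same exact test). Among the stronger 50% of the list, 98.7% of members had a top region in both replicates, and the difference from divergent summits was then not past the threshold of the exact test (adjusted p = 0.802). A share so near its upper limit leaves little room for a difference, so this setting cannot show whether one remains. The share just downstream of gene starts was 62.9% (interval 53.5 to 71.7%), and its difference from the members did not pass the threshold of the exact test (odds ratio 1.35, adjusted p = 0.325). In the pooled list the members' share was 6.67 percentage points higher than the downstream share. Among the strongest regions of replicate 1, the share with a top region in replicate 2 was 23.2 points higher at members. That difference passed the threshold of the exact test (adjusted p = 2.06e-06), but it is another measure, since only overlap with replicate 2 was asked.

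The replicates placed the summits close together, in peaks already chosen in part for agreement. The thresholded list was made by irreproducible discovery rate, which favours peaks that rank alike, so the values below describe such peaks. The summit of the strongest overlapping region in replicate 1 and that in replicate 2 were a median of 18 bp apart, and within 100 bp of each other for 690 of the 757 members with a region in each list. Over all nuclear peaks the median was also 18 bp, with 2190 of 2403 within 100 bp, so the members were at the background. At divergent summits the median was 13.5 bp. Across these 757 members the log2 signal values of the replicates had Pearson's r of 0.81 and the signal values Spearman's rho of 0.688, as a description of peaks that share libraries. A further 3 members had no region in replicate 1 at all. The strongest of these, at C14A11.9, had a pooled signal value of 563 and ranked 555 in replicate 2, and the others were at seip-1 and fmi-1.

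**Figure D1:**
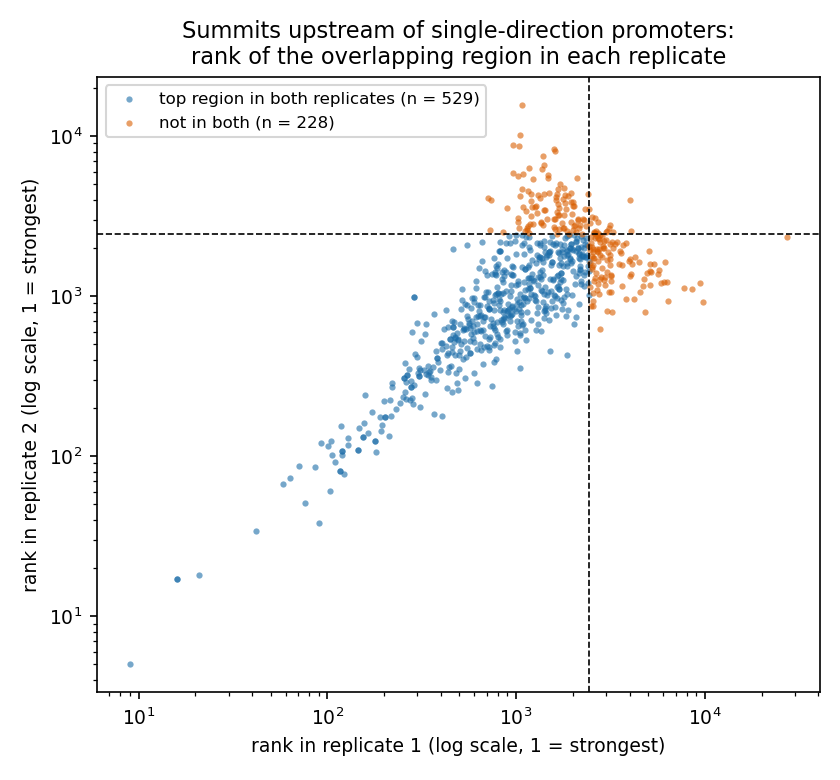
Rank of the overlapping region in replicate 1 (x axis) and replicate 2 (y axis), both on log scales with 1 as the strongest, for the 757 members with a region in each list; dashed lines mark rank 2430. The 529 members with a top region in both replicates run along the diagonal, and the other 228 points lie outside 1 or both lines.

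The greatest rank differences were at 3 weak summits. The summit at ncam-1, a neural cell adhesion molecule gene, had a pooled signal value of 226, with 45.8 in replicate 1 (rank 27225) and 104.1 in replicate 2 (rank 2323). The summit at ncs-2, a neuronal calcium sensor gene, had a pooled value of 238, with 182 in replicate 1 (rank 1079) and 48.6 in replicate 2 (rank 15654). The summit at inx-18, a gap junction (innexin) gene, had ranks 1055 and 10076. Each of the 3 was a top region in 1 replicate only, replicate 2 at ncam-1 and replicate 1 at the other two.

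Most peak intervals were of a fixed size: 637 of the 760 were 424 bp wide, and 640 had the summit at the middle of the interval. The position of a summit is therefore known only as well as the caller centred the region. The members held 757 distinct intervals, since 3 intervals had 2 member summits each. At the 1000-bp bound the outermost member was at clec-114, a C-type lectin gene, 999 bp upstream with a signal value of 280.0. At the bound on small RNA genes, the nearest was a summit at ippk-1, an inositol phosphate kinase gene, 210 bp from such a gene with a signal value of 590.4.

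Member summits lay at a median of 276 bp upstream of the nearest annotated 5′ end (interval 257 to 297 bp), with quartiles at 149 and 520.5 bp. In bins of 100 bp counted outward from the 5′ end there were 110, 163, 144, 89, 55, 49, 39, 40, 34 and 37 members. The fullest bin reached from 100 to 200 bp, and the counts changed little beyond 600 bp. Of the members 417 (54.9%) lay within 300 bp. The median depends on the reach of the window, at 204 bp with a reach of 500 bp and 439 bp with 2000 bp. Strong and weak summits lay at like distances, with a median of 277 bp for the members in the top 25% by signal value and 276 bp for the rest. For comparison, the 318 divergent summits upstream of their nearest 5′ end had a median of 152.5 bp (interval 142 to 168 bp), where the nearer of 2 opposed genes sets the distance.

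The 5′ ends beside member summits differed from other annotated 5′ ends in how often they followed the splice acceptor word TTNCAG. The word stood directly before the nearest 5′ end for 282 members (37.1%, interval 33.7 to 40.7%), against 17.9% of all 29314 protein-coding 5′ ends and 18.98% of the outermost 5′ ends of the 19973 genes. Members of this kind lay at a median of 302 bp (interval 286 to 325 bp), whereas the 478 members without the word lay at 248.5 bp (interval 216 to 276 bp). By distance, the share with the word was 8.18% in the first 100 bp, 33.1% between 100 and 200 bp, 53.5% between 200 and 300 bp and 51.7% between 300 and 400 bp. Summits within 100 bp of an annotated 5′ end thus rarely had an acceptor word there. The annotated 5′ end was the first base of the coding sequence for 94 members (12.4%), so no untranslated stretch was annotated before it. This held for 29.7% of all 5′ ends and 23.7% of the outermost ones. It does not tell whether a transcript is trans-spliced: of the 282 members with the acceptor word, 261 had a 5′ end that was not a coding start, and the rest had one that was. Members of such transcripts lay at a median of 358.5 bp (interval 268 to 450 bp).

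**Figure D2:**
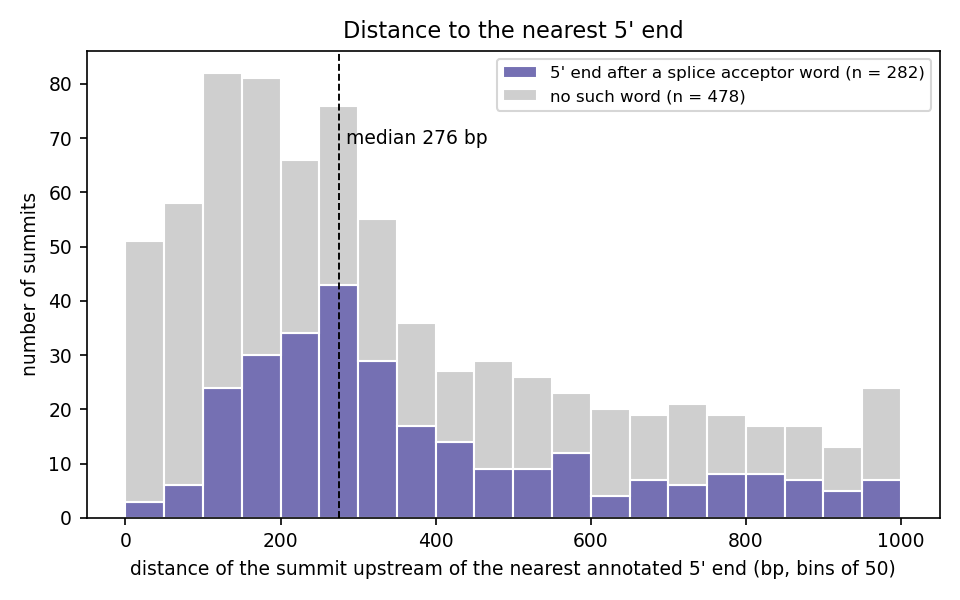
Number of member summits (y axis) by distance upstream of the nearest annotated 5′ end (x axis, in bp, bins of 50), with the 282 summits whose 5′ end directly follows an acceptor word in purple stacked under the 478 others in grey; the dashed line is the median of 276 bp. The purple part is small in the first 100 bp, where its share is 8.18%, and its share of a bin is highest between 200 and 400 bp.

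Under the summit itself the annotation was most often empty. The summit lay between genes for 541 members (71.2%), in an intron of the same gene for 107 (14.1%), in a non-coding gene or pseudogene for 57 (7.50%) and in an intron of another gene for 24 (3.16%). A further 9 were in the 5′ UTR of the same gene, 5 in a coding exon of it, 11 in the 3′ UTR of another gene, 2 in the 5′ UTR of another and 4 in a coding exon of another. Summits in an intron of the same gene are upstream of a later start of a gene with several annotated starts. Their median signal value was 283, and 63.6% of them had a top region in both replicates, against 309 and 72.3% for summits between genes. The strongest of them was at K05C4.2, with a pooled signal value of 1244 and ranks 63 and 73. That at scc-2, a gene for the cohesin loader, had a pooled value of 839.8 with ranks 193 and 143.

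The neighbouring gene on the upstream side ran on the same strand as the nearest gene for 441 members (58.0%) and on the opposite strand for 319. The median signal value was 301 with a same-strand neighbour and 300.1 with an opposite-strand neighbour. The member genes had wide upstream gaps. The distance to the next protein-coding gene was a median of 1796 bp for the 721 genes nearest to a member, against 941 bp over all 19973 genes, and 65.0% against 48.2% were over 1000 bp. The rule favours wide gaps and same-strand neighbours, since an opposed gene close by puts a summit in the divergent class. The strand of the neighbour was not counted over all genes, so the 58.0% has no background beside it.

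The 760 members were nearest to 721 genes, of which 683 had 1 member, 37 had 2 and 1 had 3. The 38 genes with several members had them a median of 208.5 bp apart, and 23 had them within 250 bp. In 21 of the 38 genes the members fell in 1 region in each replicate list, as at ftt-2, so such neighbours are not independent. The gene with 3 was lit-1, which codes for the Nemo-like kinase of the Wnt/β-catenin asymmetry pathway. Its summits had signal values of 338, 261 and 237 and lay 811, 135 and 179 bp upstream of 2 annotated starts, all within introns of the longer transcripts. The first had ranks 1105 and 982, the second 1150 and 2756, and the third 4061 and 1370, so only the first had a top region in both replicates.

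By chromosome there were 136 members on I, 133 on II, 119 on III, 91 on IV, 90 on V and 191 on X. The X chromosome had 10.8 members per Mb and V had 4.30, with the others between 5.202 and 9.02. All nuclear summits together were also most numerous on X, with 519, and least numerous on V, with 314. Members made up 36.8% of the summits on X and between 27.7% and 34.9% on the other chromosomes. As a share of protein-coding genes, 6.66% of X genes and 1.72% of V genes were nearest to a member, and the other chromosomes lay between 2.68% and 4.45%. Members on X had a median signal value of 315 and 74.9% of them had a top region in both replicates. On I the median was 289 and the share 61.8%. These are counts with no test.

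Over all protein-coding genes, 3.61% (721 of 19973) were nearest to a member, and the gene lists below are read against that share. The lists were chosen with earlier results of these data known, so no list was tested. The highest shares were in genes of the ribosome, of the epidermal junctions and cytoskeleton, of a mixed list of kinases and polarity genes, of translation, of the synapse and axon, and of chromatin. The lowest were in chemoreceptor and collagen genes.

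Among genes of the large ribosomal subunit 11 of 48 (22.9%, interval 12.03 to 37.3%) were nearest to a member, and among those of the small subunit 7 of 32 (21.9%, interval 9.28 to 39.97%). After rpl-3 the strongest was rpl-35 with a pooled signal value of 1268, ranks 76 and 51, and a distance of 455 bp. The gene rpl-24.2 had 551, ranks 485 and 287, at 154 bp. In the small subunit rps-28 had 1046 (ranks 110 and 92), rps-24 had 643 (ranks 278 and 272) and rps-4 had 450.5 (ranks 702 and 488). The summits of ribosomal protein genes lay at median distances of 305 and 299 bp for the large and the small subunit, and 2 of the 18 genes had a GC box in the summit window. Other ribosomal protein genes were nearest to divergent summits, 7 of the large and 3 of the small subunit.

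Translation factors had 7 of 43 genes (16.3%) nearest to a member, all 7 with a top region in both replicates, led by the initiation factor 3 subunits eif-3.C and eif-3.B. The summit of eif-3.B had a pooled signal value of 515 and ranks 622 and 286. Of the nuclear genes for the respiratory chain and ATP synthase 6 of 54 (11.1%) were nearest to a member, again all with a top region in both replicates. The summit at cox-5B, a subunit of cytochrome c oxidase, lay 1 bp upstream of the 5′ end with a signal value of 905, and that of cox-5A at 302 bp with 717. Mitochondrial ribosomal protein genes had 5 of 66, aminoacyl-tRNA synthetase genes 1 of 32 (kars-1, signal value 390.2), proteasome genes 3 of 33 and splicing factor genes 3 of 59. The intervals of these 4 shares included 3.61%, and the 3 proteasome summits were weak, at 222 to 266, with none in the top regions of both replicates.

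Chaperone genes had 7 of 69 (10.1%), with hsp-1, the constitutive cytosolic HSP70, at 872 (ranks 164 and 140) and hsp-3, an HSP70 of the endoplasmic reticulum, at 672 (ranks 311 and 203). The list of cell cycle and replication genes had 8 of 82 (9.76%), all with a top region in both replicates. It was drawn broadly: its strongest summit was at cdc-48.1, the AAA ATPase gene described above, at 1167. The share is thus not one of cell cycle genes alone. The others included cki-1, a cyclin-dependent kinase inhibitor, at 465, pcn-1, the replication clamp PCNA, at 431, cdk-12 at 291 and cdc-73 at 260. Genes for small GTPases and vesicle traffic had 14 of 128 (10.9%), led by the translocon subunit gene sec-61.G at 814 and the exocyst gene sec-3 at 514.

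Among the chromatin regulators 14 of 96 (14.6%, interval 8.21 to 23.3%) were nearest to a member. Besides cbp-1 they included swsn-3, a SWI/SNF component, with a signal value of 813 (ranks 190 and 175) and the SET-domain gene set-4 with 517 (ranks 406 and 469). A mixed list of kinases and polarity genes had 8 of 47 (17.02%, interval 7.65 to 30.8%). They were kin-29, a salt-inducible kinase, at 448, the kinases kin-20, lit-1, kin-1 and mek-1 between 332 and 344, and the polarity genes par-3, par-1 and pkc-3 between 242 and 255. The share is thus not one of polarity and MAPK kinases alone. No gene of this mixed list was nearest to a divergent summit, and the same held for the body wall muscle, epidermal junction and collagen lists. There were only 344 divergent summits over 19973 protein-coding genes, so no gene in a short list says little. Synapse and axon genes had 12 of 76 (15.8%, interval 8.43 to 25.96%). There egl-30, the Gq alpha subunit, had a signal value of 810.4 at 34 bp, and syd-2, the presynaptic liprin, had 536 at 472 bp.

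Body wall muscle genes had 7 of 55 (12.7%), with the adhesion gene unc-112 at 458 and the cofilin gene unc-60 at 445. Epidermal junction and cytoskeleton genes had the highest share, 5 of 18 (27.8%, interval 9.69 to 53.5%), and the greatest median distance, 821 bp. Their summits were at spc-1, alpha spectrin, with 644 at 761 bp, crb-1, Crumbs, with 349 at 82 bp, hmp-1, alpha-catenin, with 275 at 913 bp, zoo-1, a ZO-1 homologue, with 245 at 821 bp and vab-10, a spectraplakin, with 225 at 963 bp. The list is short and its interval wide. Transcription factor families were near the background. Homeobox genes had 4 of 100 and nuclear hormone receptors 7 of 274, with ceh-39 at 382 and nhr-48 at 405 the strongest. Histone genes had 3 of 83 and Wnt and Notch pathway genes 1 of 49, at sel-2. Of the 178 collagen genes 1 (0.562%) was nearest to a member, col-63, and of the 1365 chemoreceptor genes 3 (0.220%, interval 0.0453 to 0.641%). All 4 of these summits were weak, with signal values between 224 and 259.6, and sre-47 ranked 9798 in replicate 1 and 918 in replicate 2.

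**Figure D3:**
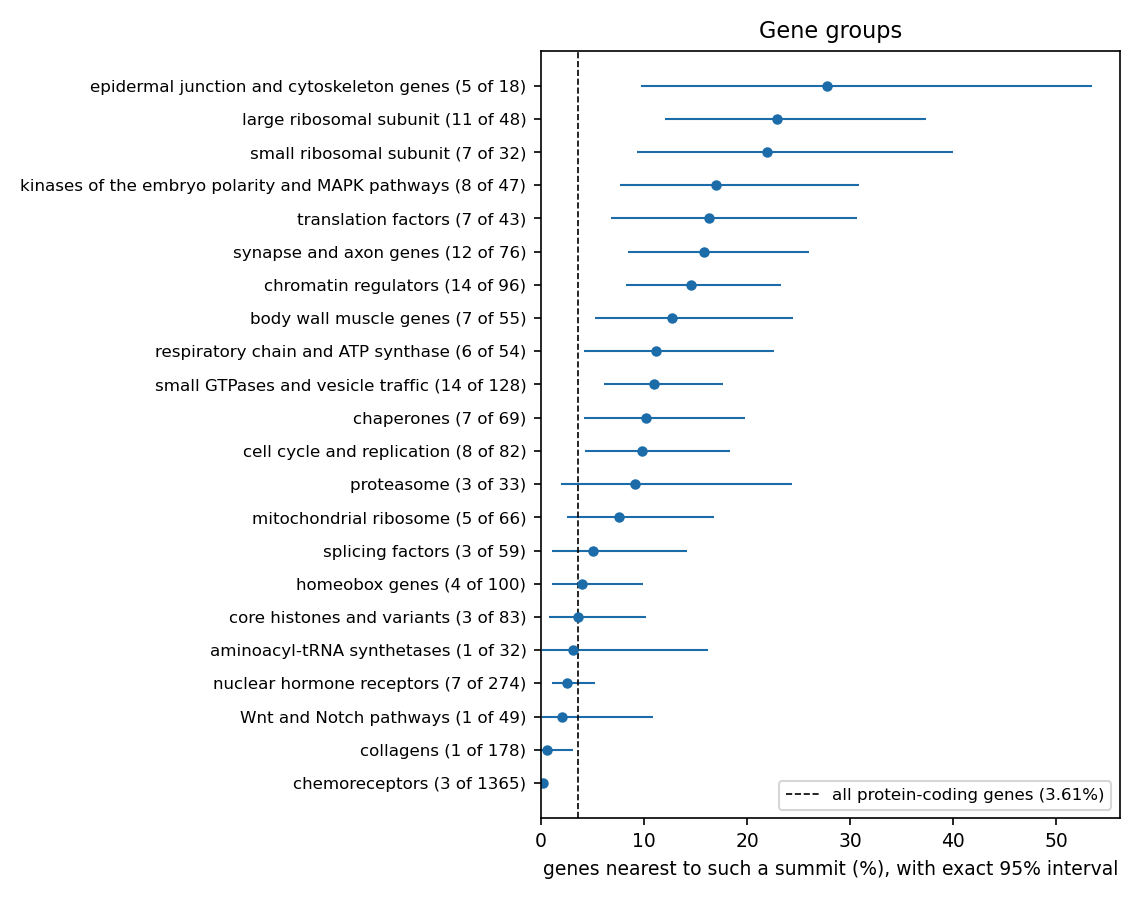
Share of each gene list nearest to a member summit (x axis, percent), with exact 95% intervals as bars and the number of genes beside each name; the dashed line is the 3.61% of all protein-coding genes. Epidermal junction genes (27.8%) and both ribosomal subunits (22.9% and 21.9%) stand highest, and chemoreceptors (0.220%) lowest.

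Member summits were rich in G and C. Windows of 100 bp on either side of them had a median GC content of 46.3%, against 33.3% in windows of the same length directly before the outermost 5′ end of each protein-coding gene. The mean GC content was 49.6% and 49.4% in the 50 bp on either side of the summit and fell away on both sides, to 34.3% around 475 bp on the side away from the gene and 36.8% on the side towards it. The windows of divergent summits had a median of 41.3% and those of downstream summits 48.3%. Of the members 46.8% (interval 43.2 to 50.5%) had a window GC content above the median of all nuclear summits, against 20.9% of divergent summits (interval 16.8 to 25.6%, odds ratio 3.33, adjusted p = 2.14e-15, the same exact test). In windows of 50 bp on either side this difference was 8.59 percentage points, against 25.9 in the wider windows, with an adjusted p of 0.0490 by the exact test. The difference from downstream summits, of which 58.6% were above that median, did not pass the threshold by the exact test (adjusted p = 0.0690). Divergent summits had as high a GC content at the summit itself, 48.2% in both bins beside it, but fell to 30.1% around 125 bp away. The members' GC content thus declined more slowly with distance than that of divergent summits.

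**Figure D4:**
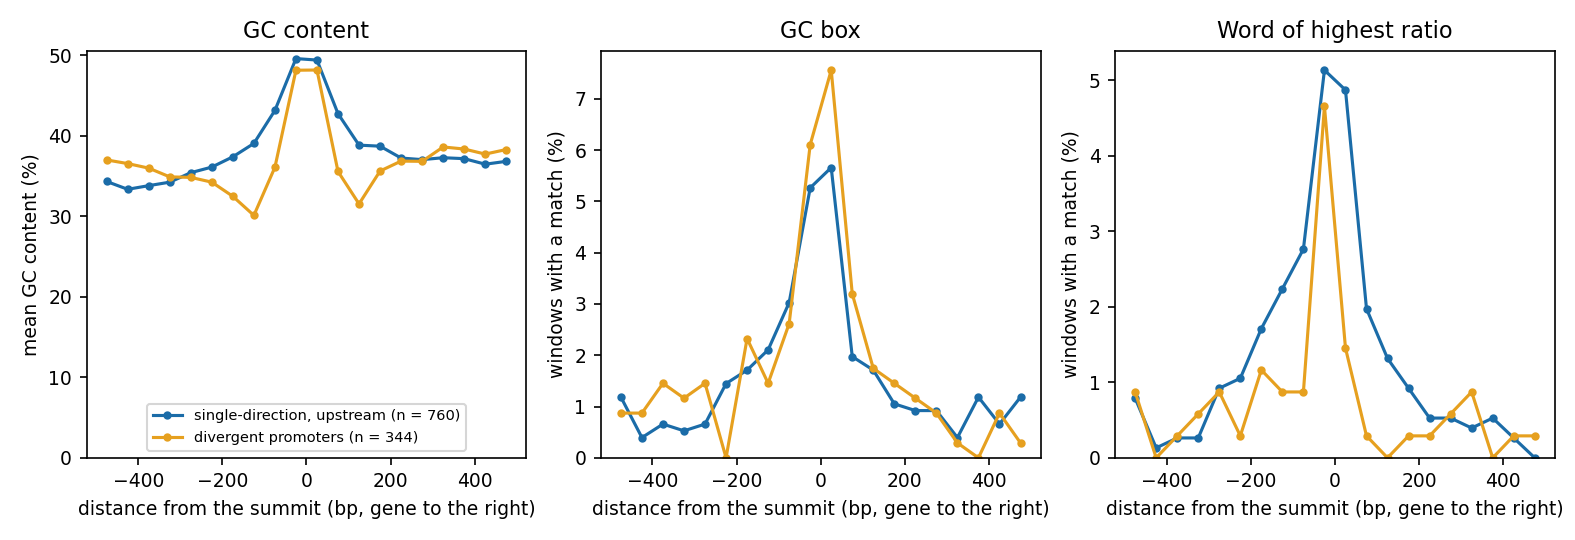
Mean GC content (left), share of windows with a GC box (middle) and share with CTGCGTC, the word of highest ratio to promoters (right), in percent, by distance from the summit in bp (bins of 50, gene to the right), for the 760 members in blue and the 344 divergent summits in orange. All 3 peak at the summit, and the members' GC content is 38.9 to 39.1% in the bins around 125 bp.

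The GC box was found in 111 member windows (14.6%, interval 12.2 to 17.3%), against 5.99% of all 19973 promoters. It was centred on the summit: 5.26% and 5.66% of members had it in the 50-bp bins beside the summit, against 1.18% in each of the outermost bins. The share at divergent summits was 18.9%, and the difference did not pass the threshold of the exact test (adjusted p = 0.189), although it did with the strongest regions of replicate 2 alone (adjusted p = 0.0471). Members with a GC box had a median signal value of 307, and those without had 299.5. Among the 20 strongest members found in both replicates, 3 had a GC box within 100 bp of the summit and none had CTGCGTC. The 3 of 20 with a GC box were near the share over all members, and over all nuclear summits the share was 14.5%. The longer form GGGGCGG, a subset of the GC box, was in 5.13% of members and 1.44% of promoters.

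The CACCC box, which KLF factors bind in mammals, was in 82 member windows (10.8%, interval 8.67 to 13.2%), against 3.78% of divergent summits and 4.10% of promoters. The odds ratio against divergent summits was 3.08 (adjusted p = 0.000462, the same exact test), and the 12.1% of downstream summits did not differ past the threshold. In windows of 50 bp on either side the difference from divergent summits was 3.75 percentage points, against 7.01 in the wider windows (adjusted p = 0.0318, the same exact test). Members with a CACCC box had a median signal value of 322, and 80.5% of them had a top region in both replicates, whereas those without had a median of 299 and a share of 68.3%.

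The word CTGCGTC was in 107 member windows (14.1%, interval 11.7 to 16.8%), against 6.98% of divergent summits, 13.8% of downstream summits and 3.25% of promoters. The odds ratio against divergent summits was 2.18 (adjusted p = 0.00316, the same exact test), and the difference was lost in windows of 50 bp on either side (adjusted p = 0.150). Of 114 matches in member windows 91 (79.8%) were followed by TC, against 71.5% of 671 matches in promoters. The GA repeat GAGAGAG was in 162 member windows (21.3%, interval 18.5 to 24.4%), against 9.88% of divergent summits, 21.6% of downstream summits and 5.17% of promoters. The odds ratio against divergent summits was 2.47 (adjusted p = 3.9e-05, the same exact test). Each of these 3 words was thus more frequent at members than at divergent summits. Over all nuclear summits the shares were 10.9% for CACCC boxes, 12.5% for CTGCGTC and 19.6% for GAGAGAG. The members were thus near the share of all summits, and the divergent summits lay below it.

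GC content differed between the same classes, and its part in these word differences was not tested. Among windows at or under the median GC content of all nuclear summits, CACCC boxes were in 6.19% of 404 members and 2.94% of 272 divergent summits. In the same windows CTGCGTC was in 11.1% of members and 4.78% of divergent summits, and GAGAGAG in 13.9% and 7.72%. Above the median, with 356 members and 72 divergent summits, the shares were 16.01% and 6.94% for CACCC boxes, 17.4% and 15.3% for CTGCGTC, and 29.8% and 18.1% for GAGAGAG. The direction was the same on both sides of the median for all 3 words, and the gap for CTGCGTC above the median was small. The GC box went the other way on both sides. It was in 11.1% of members and 15.1% of divergent summits at or under the median, and in 18.5% and 33.3% above it. These gaps were not tested.

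AT-rich promoter words were less frequent at members. The TATA box (TATAAA) was in 9.74% of members, 15.7% of divergent summits and 30.5% of promoters, and TTTGAA, the cell cycle homology region, was in 29.5%, 39.2% and 50.1%. Both passed the threshold against divergent summits (odds ratios 0.579 and 0.647, adjusted p = 0.0211 and 0.00709, the same exact test). The TATA difference was lost in 5 of 6 alternatives, both single-replicate lists included (adjusted p 0.182 with replicate 2 alone and 0.259 with replicate 1 alone), and that for TTTGAA in 3, with adjusted p of 0.0541, 0.277 and 0.782. At or under the median GC content the shares were 15.1% of members and 16.2% of divergent summits for TATAAA, and 41.3% and 43.8% for TTTGAA. Above it they were 3.65% and 13.9% for TATAAA, and 16.01% and 22.2% for TTTGAA. A run of 8 T was in 10.7% of members and 26.3% of promoters, and GATAAG, the GATA factor word, in 3.29% and 12.6%.

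The remaining words were close to their share in promoters or rare. CACGTG was in 4.74% of members and 4.23% of promoters, CCAAT in 27.6% and 32.4%, and TGACGTCA in 0.921% and 0.936%. The B box of tRNA genes was in 13 members (1.71%), although members lay over 200 bp from annotated tRNA genes, against 1 divergent summit (0.291%, adjusted p = 0.189 by the exact test) and 0.841% of promoters. With windows of 200 bp on either side the difference from divergent summits was 2.74 percentage points and passed the threshold of the exact test (adjusted p = 0.00879). Their median signal value was 381, and 92.3% of them had a top region in both replicates. The strongest were at eelo-2, with 697 and ranks 261 and 229, at sms-3, a sphingomyelin synthase gene, with 686, and at lias-1, the lipoic acid synthase gene, with 499 and ranks 545 and 417.

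**Figure D5:**
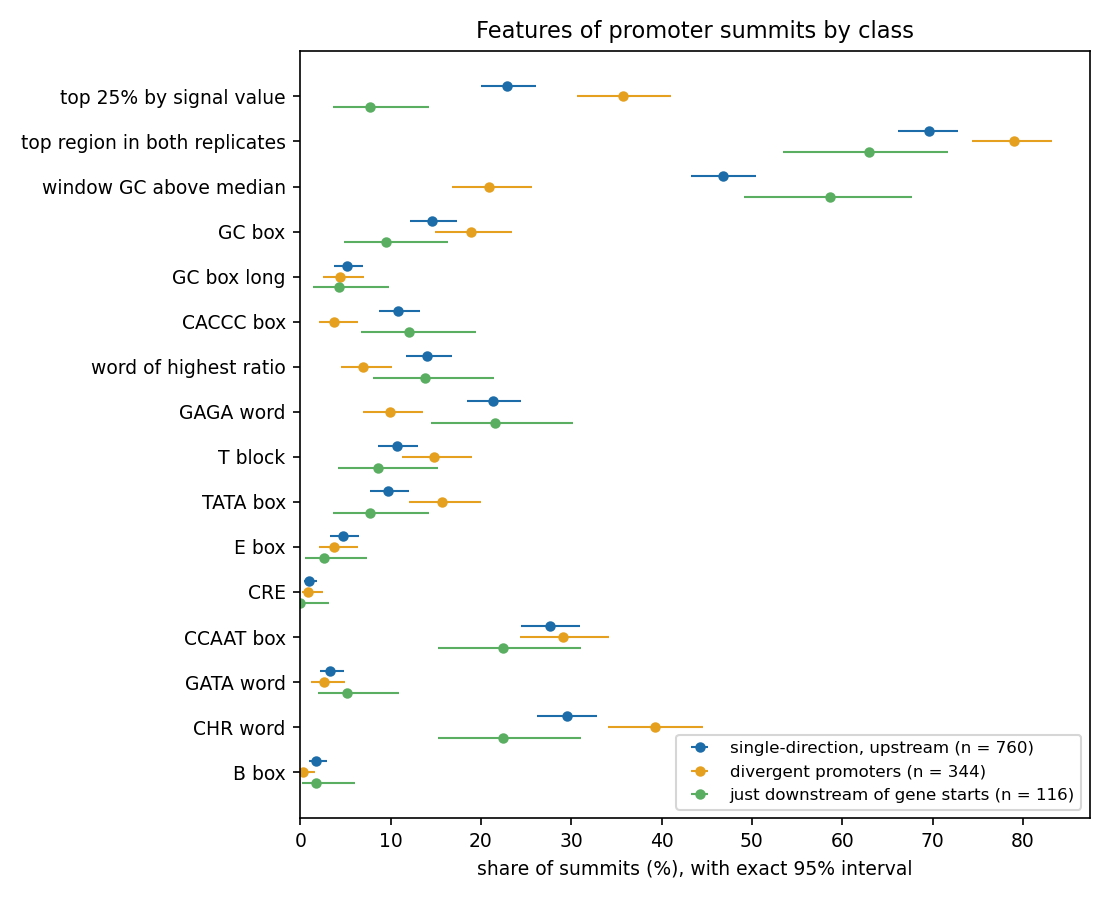
Share of summits with each feature (x axis, percent, exact 95% intervals as bars) for the 760 members in blue, the 344 divergent summits in orange and the 116 downstream summits in green. CACCC boxes, CTGCGTC (shown as the word of highest ratio), the GA repeat and high GC content are more frequent at members than at divergent summits, and the top 25% by signal value less frequent.

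Of the GC box, CACCC box, CTGCGTC and GAGAGAG, 398 members (52.4%) had none within 100 bp of the summit, 275 had 1, 77 had 2, 7 had 3 and 3 had all 4. The median GC content was 43.8% with none of these words and 49.8% with 2. The median signal value was 304 with none, 300.1 with 1, 296 with 2, 322 with 3 and 353 with all 4, the last of these over few members.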

How the data were processed

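ChIP-seq for SPTF-1 had been done in 2 replicates. The authors deposited, for the ce11 build, a list of 30000 regions per replicate, one of 30000 regions from both replicates and a thresholded list of 2430 peaks. Per the deposited file listings, alignments and a control file went into the calling of regions, and the thresholded list is the optimal one by irreproducible discovery rate. For each region the authors deposited its signal value, its −log10 q value and its summit. Aligner, caller, cutoff and depth of sequencing are not given in the sources used here. The −log10 q was at its highest value for 71.3% of members, so regions were ranked by signal value. The ce10 lists and the control's values were not used here.

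Summits were classed against protein-coding transcripts and small RNA genes of the WBcel235 annotation (Ensembl release 115). A region in a replicate was matched by at least 1 shared base, taking the strongest. The acceptor word was TTNCAG directly before a 5′ end. Words were searched on both strands. Median distances have exact order-statistic intervals and shares Clopper-Pearson intervals at 95%, which cover counting error over summits only. Of the 16 features, each was compared with divergent and with downstream summits by two-sided Fisher's exact tests, with Benjamini-Hochberg adjustment over 32 tests and a threshold of 0.05. Python 3.11.15, SciPy 1.17.1, pandas 2.3.3, NumPy 2.4.6 and matplotlib 3.10.9 were used, and the computations were tested on simulated data.

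The members and the gene lists were chosen with earlier results of these data known. Genes named by rule were those nearest the 20 strongest members found in both replicates, up to 3 per list, those with 3 or more members, the 3 greatest rank differences and the members closest to each bound. Other genes, the GC-box windows, the words of 8 letters and the values by GC content were chosen after values were seen. Alternatives changed the window reach, small RNA distance, 5′ ends, peak set, overlap rule, number of top regions and window width, or used 1 replicate alone.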

Additional observations from a re-analysis of the deposited data

How the results depend on the processing

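The distance and word shares moved with the settings that define them. With a window reach of 500 bp the median distance was 204 bp and 74.7% lay within 300 bp, and with 2000 bp they were 439 bp and 39.4%. In windows of 50 bp on either side the GC box was in 10.3% and CTGCGTC in 9.47%, and with 200 bp in 18.9% and 18.4%. The share with a top region in both replicates was 61.97% when at least 50% of each interval had to be shared, 33.6% with 1000 top regions and 94.9% with 5000. In the stronger 50% of the list there were 382 members and 364 genes, of which 98.7% of members had a top region in both replicates and 41.1% an acceptor word (41.0% with outermost 5′ ends). There, 4 features passed the threshold against divergent summits and 0 against downstream ones. The both-replicate difference from downstream summits was -1.31 percentage points in these peaks. With the members' share so near its upper limit, that sign cannot be read as a reversal. In windows of 50 bp on either side 5 passed against divergent summits, and with 200 bp 9. The cause of these changes was not tested. The stronger 50% also held fewer summits to compare. With the strongest regions of either replicate alone, members numbered 725 to 769 and genes 688 to 732. The median distance was 272 to 282 bp, the share within 300 bp 53.7 to 55.1% and the acceptor share 37.2%. Of these members 68.8 to 74.3% had a top region in the other replicate, which is not the both-replicate share of pooled peaks. The GC box share was 13.4 to 14.3% and the CTGCGTC share 13.1 to 14.2%. With these regions 7 to 8 features passed against divergent and 1 to 2 against downstream summits. Of the alternatives 77 values of these results changed little and 21 moved. Depth limits what weak summits can show: read depth is unknown, and 2 replicates of 1 group allow no test between conditions. No paired analysis was possible because there was 1 group.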

Other observations

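Words of 8 letters were counted in the member windows without a choice of motif, a step added after the values were seen. Of the 766 words held by at least 20 members, the 20 with the highest ratio to promoters included 19 with a CpG. CTCGCACA was in 23 members, 13.7 times its share in promoters, CACGCGAC in 23 (13.4 times) and GCGCAAGC in 21 (12.5 times). The shares at members and divergent summits were 3.03% and 0.291% for CTCGCACA, 3.03% and 2.33% for CACGCGAC, and 2.76% and 3.78% for GCGCAAGC. GCGCAAGC shares the letters GCGCAAG with the word CTTGCGCA read on the other strand, so these words are not separate observations. Members had a median of 12 CpG per window of 100 bp on either side, against 12 at divergent summits, 11 at downstream summits and 5 in promoters. Relative to what the C and G content gives, the median was 1.16 at members, 1.42 at divergent summits and 1.04 in promoters. The repeat CACACACA was in 11.2% of members, 2.03% of divergent summits, 11.2% of downstream summits and 1.75% of promoters.

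CTTGCGCA, printed above in 4 windows, stood out by strength. The 22 members that held it (2.89%) had a median signal value of 557, against 298 for the other members, and 12 of them were among the 100 strongest. Its share was 4.07% at divergent summits and 0.295% in promoters. Besides K12H4.5 the strongest were ddp-1, which codes for a small chaperone of the mitochondrial intermembrane space, mrck-1, which codes for a kinase related to the myotonic dystrophy kinase, sec-61.G and mans-3. At ddp-1 the pooled signal value was 990.2, with 545 in replicate 1 (rank 119) and 451 in replicate 2. At mrck-1 it was 937, with 535 in replicate 1 (rank 128) and 406 in replicate 2 (rank 129). At mans-3 it was 704, with 412 in replicate 1 (rank 219) and 289 in replicate 2 (rank 269). Of the 22 members 19 had a top region in both replicates. The word was chosen partly for its place among the strongest members, so its signal values are a description.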
